A study of Mus musculus with 9 samples.

Results

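The 56 genes described here copy DNA, supply its building blocks or carry the copied chromosomes through mitosis, and they were listed by name as a set of cell cycle genes. Of these, 54 were measured among 19938 genes on the arrays, each by 1 probe set with a single gene symbol, the one with the highest mean over 9 arrays. Ccnb1 was not analysed here, and Cdkn1a was left out because its probe set also carries the symbol of another gene. The measured members were 10 genes of origin licensing, 10 of the replication fork, 4 of nucleotide supply, 3 of chromatin copying, 6 regulators of S-phase entry, 20 of mitosis and the inhibitor gene Cdkn1b. The licensing and fork genes together are called the 20 replication members below. RNA came from liver cells of Cxcl12DsRed/+ mice on a C57BL/6 background, in which a red fluorescent reporter marks cells that transcribe the chemokine gene Cxcl12. The cells were sorted as positive for the reporter and negative for the blood cell antigens CD45 and Ter119, at 3 stages, the fetal stage E15.5 and days 5 and 10 after birth (P5, P10). All 3 groups shared that genotype and sort, no treatment is named in the labels, and each stage had 3 arrays that the labels call independent replicates. The labels leave unsaid if these are single animals or pools, so a p-value reflects only how far the arrays of a stage scatter, which may be technical. The values are log2 signals, so a difference of 1 is a doubling, and they rank a gene's arrays but not 1 gene against another. Differences are given with ± their standard error from the limma model, which was fitted over all genes and 3 arrays per stage.

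Replication and mitosis genes are read out in waves. Before S phase the origin recognition complex, Cdc6 and Cdt1 load the Mcm ring helicase onto DNA, and Cdc45 and the GINS complex then turn it into the moving helicase of the fork. These genes are classical targets of the E2F factors, which the retinoblastoma proteins hold back until cyclin D and cyclin E kinases act. Mitotic genes follow later, and many of them are controlled by the DREAM and MuvB complexes through a promoter element called the cell cycle genes homology region, or CHR. In the fetal liver both blood precursors and liver cells divide actively, and liver cells go on dividing after birth.

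The arrays were alike in overall signal, with medians over all probe sets between 6.22 and 6.45 log2 and Pearson r between 0.983 and 0.993 across probe sets within a stage, which are not independent replicates. The labelled sort was checked on markers. Cxcl12, whose reporter defines the sort, read 10.95, 10.68 and 11.31 at E15.5, 10.31, 9.95 and 10.24 at P5 and 10.31, 10.08 and 10.01 at P10, and was itself lower at P5 (-0.81 ± 0.17, adjusted p = 0.00555) and at P10 (-0.85 ± 0.17) than at E15.5. Ptprc, which encodes CD45, lay between 4.97 and 5.20 on the 9 arrays, below the median gene, at 6.75 on average over the arrays. All 10 measured stellate cell markers fell from E15.5 to P5, with a median difference of -2.23, while 6 of 9 hepatocyte markers rose and 1 fell, and Alb stood at 13.03 to 13.22 on every array, so RNA of that hepatocyte gene was present at all stages. Lrat, a stellate cell gene, went from 10.58, 10.46 and 10.99 at E15.5 to 8.50, 7.93 and 8.29 at P5 and 7.34, 7.86 and 7.97 at P10. From P5 to P10, 4 of the 10 stellate markers fell further, beside 2.89% of all genes. P5 arrays 2 and 3 stood apart from array 1. On P5 arrays 2 and 3 the 8 sinusoidal endothelial markers averaged 7.86 and 8.32 log2, against 6.28 on P5 array 1 and 6.59 to 7.26 on the P10 arrays. Of 9 measured erythroid markers 4 fell at P5, where 17.7% of all genes fell and 17.9% rose. The average of the 9 was 6.68 to 7.33 at E15.5, 6.47 to 6.57 at P5 and 6.49 to 6.85 at P10. At P10, 5 of the 9 (Slc4a1, Epor, Gata1, Epb42 and Tfrc) were lower than at E15.5 and 1 was higher. Over all genes 18.6% were lower and 20.1% higher in that contrast. The 1 erythroid gene that was higher, Alas2, exceeded both P5 (0.90 ± 0.092, adjusted p = 0.00166) and E15.5 (1.12 ± 0.092) at P10. Eif2s3y, a Y-linked gene, read 7.94 to 9.24 on E15.5 array 3, P5 arrays 2 and 3 and P10 array 1 and 3.96 to 4.14 on the other 5, so the sex make-up of the arrays differed within and between stages. Xist, a gene read in female cells, was at 10.51, 10.64 and 10.16 at E15.5, 8.75, 6.16 and 5.03 at P5 and 5.09, 7.81 and 7.98 at P10. E15.5 array 3 was thus high for both genes, so it held signal of both sexes, as a pool of animals would. The part of these cell type and sex signals in the members' differences was not tested directly. The only fits that bear on it had Eif2s3y as a covariate, or left out single arrays or P5 arrays 2 and 3 together. Fewer dividing cells and less RNA of these genes per cell cannot be told apart in such bulk samples.

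The promoters of the 2 main groups are shown first, because their letters differed between replication and mitosis genes. RefSeq windows of 300 bases (250 before and 50 after the annotated start, build GRCm38.p6) matched 44 of the 56 listed genes. They were searched on both strands for the E2F core (the letters TTGGCGC, the letters TTCCCGC, the letters TTGCCGC or the letters TTCGCGC) and the CHR letters TTTGAA. The complement of the CCAAT box, ATTGG, shares letters with the core TTGGCGC, so a single stretch can hold both, and overlapping E2F cores were each counted. Capitals mark E2F cores and CHR letters in the sequences, read 5′ to 3′ on the gene's own strand.
Mcm3, chr1:20820263-20820562, minus strand: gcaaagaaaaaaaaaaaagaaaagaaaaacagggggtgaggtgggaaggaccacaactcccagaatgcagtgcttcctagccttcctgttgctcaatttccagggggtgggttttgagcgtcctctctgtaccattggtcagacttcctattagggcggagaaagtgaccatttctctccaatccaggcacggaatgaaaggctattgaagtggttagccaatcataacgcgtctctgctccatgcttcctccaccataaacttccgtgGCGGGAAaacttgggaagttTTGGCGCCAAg
Mcm6, chr1:128359656-128359955, minus strand: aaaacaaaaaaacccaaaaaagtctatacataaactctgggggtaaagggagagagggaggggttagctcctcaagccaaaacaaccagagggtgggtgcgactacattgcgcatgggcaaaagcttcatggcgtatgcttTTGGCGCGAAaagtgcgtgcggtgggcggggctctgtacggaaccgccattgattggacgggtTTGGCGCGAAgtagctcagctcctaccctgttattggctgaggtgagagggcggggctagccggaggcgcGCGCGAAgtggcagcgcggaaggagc
Pola1, chrX:93632106-93632405, minus strand: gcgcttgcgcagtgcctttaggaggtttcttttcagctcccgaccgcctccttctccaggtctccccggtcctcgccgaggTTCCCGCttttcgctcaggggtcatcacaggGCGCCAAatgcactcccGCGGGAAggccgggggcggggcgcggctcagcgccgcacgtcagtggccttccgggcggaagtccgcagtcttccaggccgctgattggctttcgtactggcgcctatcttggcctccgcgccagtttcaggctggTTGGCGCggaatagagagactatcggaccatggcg
Mki67, chr7:135716330-135716629, minus strand: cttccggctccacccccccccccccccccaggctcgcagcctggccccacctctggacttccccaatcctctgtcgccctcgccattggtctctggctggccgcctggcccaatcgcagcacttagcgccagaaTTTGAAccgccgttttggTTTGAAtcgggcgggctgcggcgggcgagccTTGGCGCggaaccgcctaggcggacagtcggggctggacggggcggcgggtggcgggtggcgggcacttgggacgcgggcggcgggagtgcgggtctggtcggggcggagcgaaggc
Top2a, chr11:99024140-99024439, minus strand: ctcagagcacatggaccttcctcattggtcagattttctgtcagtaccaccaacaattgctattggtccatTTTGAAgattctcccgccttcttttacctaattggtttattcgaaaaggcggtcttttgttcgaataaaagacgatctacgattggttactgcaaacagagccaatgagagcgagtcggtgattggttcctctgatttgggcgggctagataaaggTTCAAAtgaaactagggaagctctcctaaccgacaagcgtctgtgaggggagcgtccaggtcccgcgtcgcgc
Cdk1, chr10:69352863-69353162, minus strand: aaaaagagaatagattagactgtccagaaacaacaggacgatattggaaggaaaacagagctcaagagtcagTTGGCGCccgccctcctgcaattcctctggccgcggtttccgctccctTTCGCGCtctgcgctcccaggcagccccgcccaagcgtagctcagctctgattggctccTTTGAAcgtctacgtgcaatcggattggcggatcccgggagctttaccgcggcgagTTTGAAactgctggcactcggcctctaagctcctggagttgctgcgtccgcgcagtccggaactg
Kif23, chr9:61946750-61947049, minus strand: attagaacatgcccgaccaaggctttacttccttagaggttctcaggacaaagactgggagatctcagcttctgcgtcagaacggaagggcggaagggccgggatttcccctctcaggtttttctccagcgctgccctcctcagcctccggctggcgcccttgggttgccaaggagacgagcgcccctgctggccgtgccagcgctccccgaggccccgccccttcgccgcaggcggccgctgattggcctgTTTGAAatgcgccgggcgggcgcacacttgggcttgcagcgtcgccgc

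The 3 replication genes shown held E2F cores and no CHR letters, Top2a and Kif23 held CHR letters and no E2F core, and Mki67 and Cdk1 held both. Over the groups, E2F cores stood in 11 of 16 replication genes with a window (68.8%) and in 3 of 16 mitosis genes (18.8%), against 10.9% of all 27025 genes with a window. CHR letters stood in 2 of 16 replication genes (12.5%) and 10 of 16 mitosis genes (62.5%), against 20.2% of all genes. The CCAAT box, searched as CCAAT on both strands, was in 13 of 16 genes of each group (81.2%), against 41.1% of all genes. The 16 mitosis genes include Ccnb1, which has a window but no measurement here. A match describes letters in a window and not a bound site.

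From E15.5 to P5 the members fell broadly. Of 54 measured members 28 fell, 1 rose and 25 did not pass an adjusted p under 0.05, and their median difference was -0.45 on the log2 scale, while over all genes 17.7% fell, 17.9% rose and the median was 0.03. By role, 7 of 10 licensing, 5 of 10 fork, 2 of 4 nucleotide, 1 of 3 chromatin, 3 of 6 S-phase entry and 10 of 20 mitosis members fell. The riser was the cyclin gene Ccnd1, and Cdkn1b did not pass. From P5 to P10, 11 members rose, 1 fell and 42 did not pass, with a median of 0.46, while 2.76% of all genes rose, 2.89% fell and the median lay at -0.0015. All 11 risers were genes of replication, nucleotide supply or S-phase entry, and the only decrease was that of the cyclin gene Ccnd2. These 2 contrasts share the P5 arrays, so a low value at P5 enters both. P10 against E15.5, which does not use the P5 means, had 13 members higher, 11 lower and 30 that did not pass (median -0.06), beside 20.1% of all genes higher and 18.6% lower (median 0.02). Counted by arrays alone, all P5 arrays lay above all E15.5 arrays for 2 members and below them for 31 (24.1% and 21.1% of all genes). The P10 arrays lay above the P5 arrays for 29 and below for 1 (10.6% and 9.66% of all genes), and above the E15.5 arrays for 16 and below for 19 (27.9% and 23.8%). P5 had the lowest mean of the 3 stages in 43 of 54 members, a count for which the share over all genes was not computed.

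**Figure D1:**
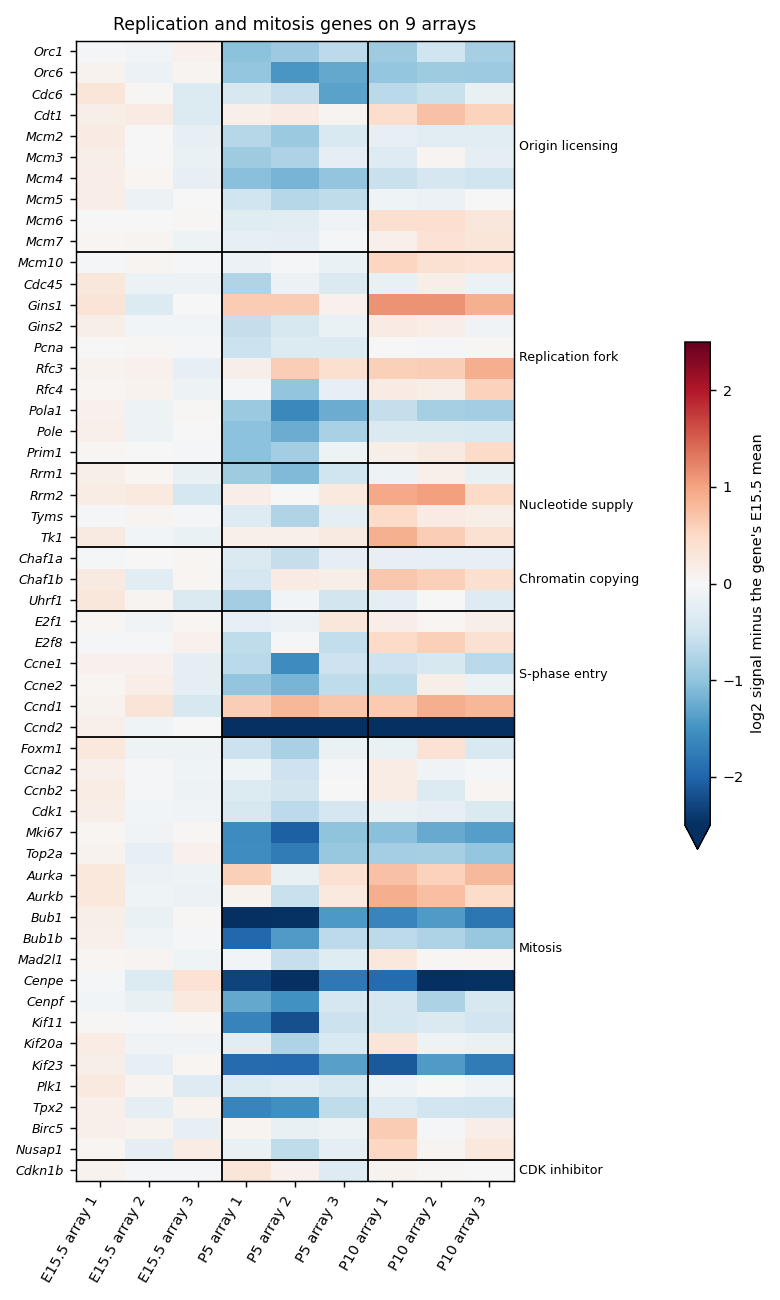
Log2 signal of each of the 54 measured members on each of the 9 arrays, minus the gene's own mean over the 3 E15.5 arrays; rows are genes ordered by role, columns are arrays, red is higher and blue lower, and values below -2.5 share the darkest blue. Most rows turn blue at P5, several mitosis rows (Bub1, Cenpe, Kif23) and Ccnd2 stay blue at P10, and Gins1, Rrm2, Tk1, Aurka and Aurkb are red at P10.

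Of the 10 origin licensing genes 7 fell at P5, beside 17.7% of all genes. Mcm4, a subunit of the helicase ring, read 9.45, 9.33 and 9.08 on E15.5 arrays 1 to 3, 8.24, 8.13 and 8.30 at P5 and 8.73, 8.87 and 8.78 at P10. Its 3 stages did not overlap, with P5 lowest and P10 in between: it fell by 1.06 ± 0.10 and then rose by 0.57 ± 0.10 (adjusted p = 6.09e-05 and 0.0159). At P10 it was still -0.49 ± 0.10 from E15.5. Mcm5 had log2 signals of 9.10, 8.80 and 8.93 at E15.5, 8.45, 8.24 and 8.31 at P5 and 8.84, 8.80 and 8.94 at P10. The P5 arrays lay below all others and the E15.5 and P10 arrays overlapped (P5 minus E15.5 -0.61 ± 0.091, P10 minus P5 0.53 ± 0.091, P10 minus E15.5 -0.08 ± 0.091 with adjusted p = 0.552). Mcm2 read 9.10, 8.89 and 8.70 at E15.5, 8.19, 7.96 and 8.51 at P5 and 8.70, 8.63 and 8.62 at P10. It fell at P5 (-0.68 ± 0.14), and its later difference of 0.43 ± 0.14 did not pass (adjusted p = 0.147) although its P10 arrays lay above all P5 arrays.

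Mcm6 and Mcm7, further subunits of the same ring, ended above their fetal level. Mcm6 read 10.48, 10.48 and 10.53 at E15.5, 10.19, 10.22 and 10.41 at P5 and 10.89, 10.92 and 10.78 at P10. Its P10 arrays were the highest of the 9, and it rose by 0.59 ± 0.073 from P5 (adjusted p = 0.00382) and by 0.37 ± 0.073 from E15.5. The decrease at P5 was small (-0.22 ± 0.073, adjusted p = 0.0449) and passed in 7 of 21 alternative analyses (highest adjusted p 0.188), and the rise over E15.5 did not pass after quantile normalisation of the deposited values (0.16 ± 0.067, adjusted p = 0.0692). Mcm7 read 8.61, 8.64 and 8.44 at E15.5, 8.36, 8.34 and 8.54 at P5 and 8.69, 8.92 and 8.87 at P10, with the P10 arrays highest. It rose from P5 to P10 (0.42 ± 0.090) and stood 0.27 ± 0.090 from E15.5 at P10, calls that held in 10 and 9 of 21 alternatives (highest adjusted p 0.122 and 0.15). Cdt1, the loading factor, read 7.10, 7.16 and 6.62 at E15.5, 7.08, 7.17 and 7.03 at P5 and 7.39, 7.69 and 7.52 at P10. The P10 arrays were the highest, and Cdt1 was higher at P10 than at E15.5 (0.57 ± 0.15, adjusted p = 0.0132).

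Orc6 and Orc1, genes of the origin recognition complex, stayed below their fetal level. Orc6 read 10.49, 10.26 and 10.48 at E15.5, 9.45, 8.96 and 9.14 at P5 and 9.44, 9.52 and 9.50 at P10, and no postnatal array reached the fetal ones. It fell at P5 (-1.22 ± 0.12, adjusted p = 9e-05) and remained lower at P10 (-0.92 ± 0.12). Orc1 read 6.22, 6.20 and 6.36 at E15.5, 5.24, 5.36 and 5.60 at P5 and 5.37, 5.76 and 5.43 at P10, with the same separation. It fell at P5 (-0.86 ± 0.13) and was still lower at P10 (-0.74 ± 0.13), and its postnatal means of 5.40 and 5.52 lay under percentile 30 of the genes (5.68 on average). Among the remaining licensing genes Mcm3 fell at P5 (-0.63 ± 0.18), and Cdc6 (-0.77 ± 0.27, adjusted p = 0.0549) did not pass.

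Of the 10 fork genes 5 fell at P5, and 4 rose from P5 to P10, beside 17.7% and 2.76% of all genes. Pcna, the sliding clamp that holds polymerases on DNA, read 12.31, 12.34 and 12.26 at E15.5, 11.76, 11.96 and 11.97 at P5 and 12.29, 12.28 and 12.36 at P10. Its P5 arrays lay below the other 6, which overlapped: it fell by 0.41 ± 0.069 (adjusted p = 0.00183) and rose by 0.41 ± 0.069 (adjusted p = 0.0131), and P10 minus E15.5 was 0.01 ± 0.069. A second Pcna probe set gave -0.41, 0.40 and -0.01 for the same differences. Prim1, the primase subunit that lays down the starting RNA, read 10.10, 10.03 and 10 at E15.5, 9.02, 9.17 and 9.92 at P5 and 10.19, 10.26 and 10.53 at P10. P5 array 3 was close to the fetal arrays and arrays 1 and 2 far below them, and both the fall (-0.67 ± 0.21, adjusted p = 0.0371) and the rise (0.96 ± 0.21, adjusted p = 0.0383) were lost in 9 and 10 of 21 alternatives (highest adjusted p 0.114 and 0.118).

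The polymerase genes Pole and Pola1 fell at P5 and were lower than at E15.5 on P10, though Pole rose in between. Pole, the catalytic subunit of polymerase epsilon on the leading strand, read 7.85, 7.59 and 7.74 at E15.5, 6.70, 6.49 and 6.91 at P5 and 7.37, 7.37 and 7.34 at P10. The stages did not overlap, and Pole fell by 1.03 ± 0.11 (adjusted p = 0.000126) and rose by 0.66 ± 0.11 (adjusted p = 0.0127). At P10 it was -0.37 ± 0.11 from E15.5, a call kept in 13 of 21 alternatives and lost under all 3 other scalings (highest adjusted p 0.11). Pola1, the catalytic subunit of polymerase alpha, read 8.53, 8.29 and 8.44 at E15.5, 7.49, 6.81 and 7.18 at P5 and 7.82, 7.59 and 7.55 at P10. It fell by 1.26 ± 0.16 at P5, its later difference of 0.50 ± 0.16 did not pass (adjusted p = 0.137), and it was lower at P10 than at E15.5 (-0.77 ± 0.16).

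Other fork genes ended above the fetal level. Gins1, a subunit of the GINS complex, read 9.03, 8.37 and 8.71 at E15.5, 9.34, 9.34 and 8.82 at P5 and 9.82, 9.83 and 9.60 at P10. The P10 arrays were above all others, and the difference from E15.5 was 1.04 ± 0.19, or 2.06-fold higher (adjusted p = 0.00251). Rfc3, a subunit of the clamp loader, read 9.84, 9.87 and 9.55 at E15.5, 9.90, 10.36 and 10.15 at P5 and 10.35, 10.36 and 10.67 at P10. Neither step passed on its own, but P10 exceeded E15.5 (0.71 ± 0.15, adjusted p = 0.00456). Mcm10, which helps to start the fork, read 7.22, 7.34 and 7.24 at E15.5, 7.12, 7.22 and 7.10 at P5 and 7.81, 7.64 and 7.61 at P10. Its E15.5 and P5 arrays overlapped and the P10 arrays lay above both (P10 minus P5 0.54 ± 0.073, adjusted p = 0.00509). Gins2 fell at P5 (-0.40 ± 0.13, adjusted p = 0.0423), a call kept in 9 of 21 alternatives (highest adjusted p 0.137), and Cdc45 and Rfc4 did not pass in any of the 3 contrasts.

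Of the 4 nucleotide supply genes 2 fell at P5 and rose to P10, and the other 2 were higher at P10 than at E15.5. Over all genes 17.7% fell at P5, 2.76% rose from P5 to P10 and 20.1% were higher at P10 than at E15.5. Rrm1, the large subunit of ribonucleotide reductase, read 10.13, 10.02 and 9.79 at E15.5, 9.10, 8.87 and 9.49 at P5 and 9.85, 10.10 and 9.79 at P10. It fell at P5 (-0.83 ± 0.17) and rose again (0.76 ± 0.17, adjusted p = 0.0367, a call kept in 10 of 21 alternatives with a highest adjusted p of 0.126), and E15.5 and P10 overlapped. Rrm2, the small subunit of the same enzyme, read 8.96, 9.01 and 8.34 at E15.5, 8.93, 8.78 and 9.01 at P5 and 9.72, 9.79 and 9.24 at P10. It did not pass at P5 (P5 minus E15.5 0.13 ± 0.20, adjusted p = 0.661; the 2 genes' differences were not tested against each other) and was higher at P10 than at E15.5 (0.81 ± 0.20). Tyms, thymidylate synthase, read 9.99, 10.09 and 9.98 at E15.5, 9.69, 9.27 and 9.78 at P5 and 10.50, 10.23 and 10.16 at P10, with P5 below both. It fell by 0.44 ± 0.14, a call kept in 8 of 21 alternatives (highest adjusted p 0.133), and rose by 0.72 ± 0.14 (adjusted p = 0.0253). Tk1, the thymidine kinase of dividing cells, read 9.80, 9.51 and 9.40 at E15.5, 9.69, 9.69 and 9.79 at P5 and 10.46, 10.19 and 9.96 at P10. P10 exceeded E15.5 by 0.63 ± 0.14 (adjusted p = 0.00683), and a second probe set gave 0.70 for P5 minus E15.5 and 1.18 for P10 minus E15.5, where the chosen one gave 0.15 and 0.63.

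Of the 3 chromatin copying genes 1 fell at P5 and another was higher at P10 than at E15.5. Over all genes 17.7% fell at P5 and 20.1% were higher at P10, and counts of 1 in 3 cannot be told from these shares. Chaf1a and Chaf1b encode 2 subunits of the factor that places histones behind the fork, and Uhrf1 keeps methylation on the new strand. Chaf1a read 8.27, 8.30 and 8.36 at E15.5, 7.95, 7.71 and 8.08 at P5 and 8.11, 8.11 and 8.10 at P10 and fell at P5 (-0.40 ± 0.091, adjusted p = 0.00866). Chaf1b read 7.43, 6.95 and 7.25 at E15.5, 6.79, 7.41 and 7.35 at P5 and 7.89, 7.80 and 7.62 at P10. It was higher at P10 than at E15.5 (0.56 ± 0.18, adjusted p = 0.0404, kept in 15 of 21 alternatives with a highest adjusted p of 0.131), and Uhrf1 did not pass in any contrast.

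Mitosis genes fell unevenly at P5: 10 fell and 10 did not pass, while 17.7% of all genes fell. The largest decrease was that of Cenpe, a kinesin that links chromosomes to the spindle, which read 8.71, 8.41 and 9.11 at E15.5, 6.42, 5.93 and 6.96 at P5 and 6.81, 6.18 and 6.28 at P10. Both postnatal stages lay below every fetal array, and P5 and P10 overlapped (P5 minus E15.5 -2.31 ± 0.29, 4.95-fold lower, adjusted p = 0.000325; P10 minus P5 -0.02 ± 0.29). Kif23, a kinesin of the central spindle needed to finish cell division, read 9.34, 8.99 and 9.23 at E15.5, 7.27, 7.24 and 7.83 at P5 and 7.09, 7.77 and 7.44 at P10. It too fell (-1.74 ± 0.21, adjusted p = 0.000256) and was -1.75 ± 0.21 from E15.5 at P10. Bub1, a kinase of the spindle checkpoint, read 9.50, 9.20 and 9.38 at E15.5, 6.77, 6.88 and 7.93 at P5 and 7.71, 7.94 and 7.56 at P10. It fell by 2.17 ± 0.28 (4.5-fold) at P5 and was lower at P10 (-1.63 ± 0.28), with P5 array 3 about as high as the P10 arrays.

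Common proliferation markers fell with them. Mki67, which encodes the Ki-67 antigen of dividing cells, read 9.95, 9.82 and 9.94 at E15.5, 8.34, 7.86 and 8.89 at P5 and 8.86, 8.65 and 8.53 at P10. All postnatal arrays lay below the fetal ones (P5 minus E15.5 -1.54 ± 0.22, adjusted p = 0.000801; P10 minus E15.5 -1.22 ± 0.22), and P10 minus P5 was 0.32 ± 0.22 with an adjusted p of 0.552. Top2a, the topoisomerase that untangles chromosomes, read 10.84, 10.55 and 10.86 at E15.5, 9.19, 9.0 and 9.80 at P5 and 9.91, 9.92 and 9.79 at P10. It fell by 1.42 ± 0.19 at P5 and was -0.88 ± 0.19 from E15.5 at P10, and a second probe set gave -1.50 and -1.41 for these 2 differences. For P10 minus P5 the second probe set gave 0.10, where the chosen one gave 0.54 ± 0.19, which did not pass. The second probe set had low signal, with stage means of 5.66, 4.16 and 4.26, under percentile 30 of the genes (5.68 on average). Cdk1, the kinase that drives entry into mitosis, read 10.74, 10.51 and 10.50 at E15.5, 10.18, 9.92 and 10.17 at P5 and 10.42, 10.37 and 10.22 at P10. Its decrease was smaller (-0.49 ± 0.10, adjusted p = 0.00522) and did not pass in a fit without P5 arrays 2 and 3 together, added once the data had been seen (highest adjusted p over 21 alternatives 0.0654). Bub1b (-1.34 ± 0.28), Kif11 (-1.47 ± 0.35), Tpx2 (-1.28 ± 0.24) and Cenpf (-1.08 ± 0.27) also fell at P5.

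Of the 10 mitosis genes that did not pass at P5, 2 were higher at P10 than at E15.5, as were 20.1% of all genes. They were the only ones higher among the 20 mitosis members, a smaller share than among all genes. Aurkb, the kinase of the chromosomal passenger complex, read 9.27, 8.90 and 8.86 at E15.5, 9.10, 8.45 and 9.26 at P5 and 9.91, 9.77 and 9.46 at P10. The E15.5 and P5 arrays overlapped and the P10 arrays lay above both, with P10 minus E15.5 at 0.71 ± 0.22 (adjusted p = 0.0336). Aurka, the kinase of the spindle poles, read 8.92, 8.52 and 8.54 at E15.5, 9.25, 8.47 and 9.05 at P5 and 9.40, 9.24 and 9.47 at P10, and was also higher at P10 than at E15.5 (0.71 ± 0.20, adjusted p = 0.0211). Each of these calls was kept in 17 of 21 alternatives, and the adjusted p reached 0.109 for Aurkb and 0.0727 for Aurka when single E15.5 or P10 arrays were left out. The other 8 that did not pass at P5 were Foxm1, Ccna2, Ccnb2, Mad2l1, Kif20a, Plk1, Birc5 and Nusap1, with differences from -0.51 ± 0.23 for the transcription factor gene Foxm1 to -0.08 ± 0.17 for Birc5, another member of the passenger complex. None of these 8 passed in any contrast of the main fit, and an unpassed test does not show that they were equal between stages: the 95% interval of Birc5 ran from -0.47 to 0.31. In the limma fit after quantile normalisation Mad2l1 (-0.45 ± 0.12, adjusted p = 0.019) and Ccna2 (-0.34 ± 0.12, adjusted p = 0.0488) did pass as lower at P5.

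**Figure D2:**
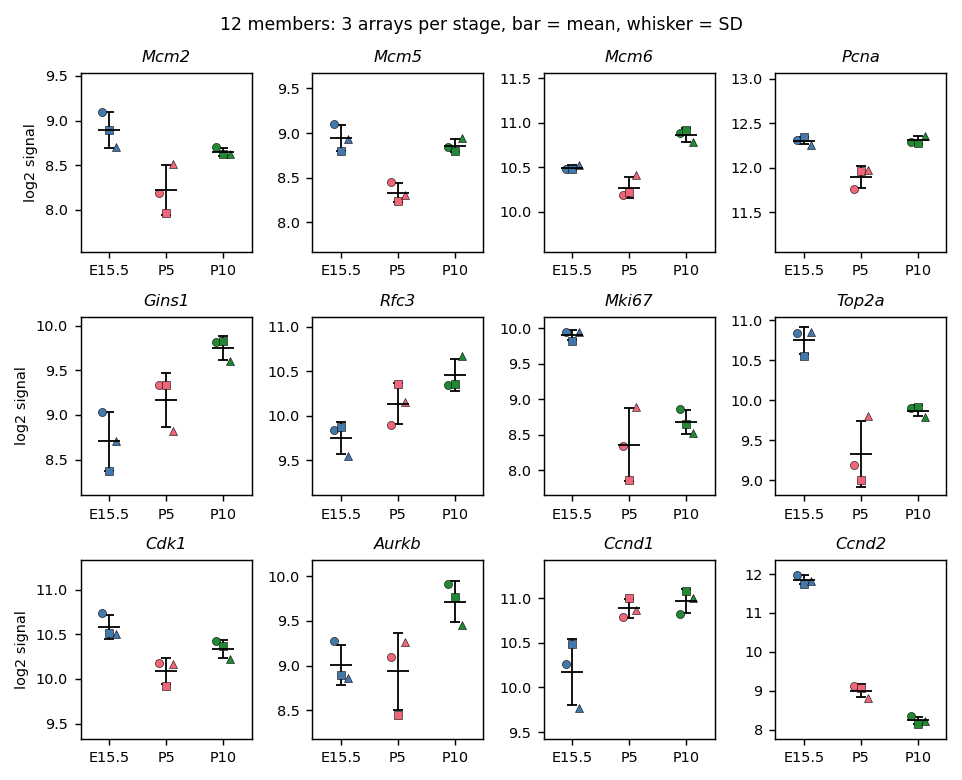
Log2 signal of 12 members by stage; circles, squares and triangles are arrays 1, 2 and 3 of a stage, the horizontal bar is the mean and the whisker the SD of 3 arrays, and each panel has its own log2 axis. Mcm5 and Pcna dip at P5 and return, Mcm6 and Gins1 end above E15.5, Mki67 and Top2a stay below it, and Ccnd1 and Ccnd2 go opposite ways.

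The regulators of S-phase entry held the largest change of all members. Ccnd2, a D-type cyclin that starts the cycle with its kinases, read 11.97, 11.74 and 11.83 at E15.5, 9.13, 9.08 and 8.81 at P5 and 8.34, 8.15 and 8.23 at P10. The 3 stages were apart, and it fell 7.14-fold at P5 (-2.84 ± 0.10, adjusted p = 2.91e-07) and further to P10 (-0.77 ± 0.10, adjusted p = 0.00496), 12.2-fold below E15.5. Ccnd1, a second D-type cyclin, read 10.26, 10.49 and 9.77 at E15.5, 10.79, 11.00 and 10.87 at P5 and 10.82, 11.08 and 11.00 at P10. All postnatal arrays lay above the fetal ones (P5 minus E15.5 0.71 ± 0.17, adjusted p = 0.0105; P10 minus E15.5 0.80 ± 0.17), and without both P5 arrays 2 and 3 the rise at P5 did not pass (adjusted p = 0.138). Stellate markers fell and hepatocyte markers rose on the same arrays, and their part in the opposite course of the 2 cyclins was not tested.

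Cyclin E genes, whose products fire the loaded origins, fell at P5. Ccne1 read 9.26, 9.25 and 8.92 at E15.5, 8.47, 7.57 and 8.63 at P5 and 8.63, 8.74 and 8.47 at P10, with P5 array 2 lowest. It fell by 0.92 ± 0.25 (adjusted p = 0.0209, kept in 17 of 21 alternatives with a highest adjusted p of 0.0704). Ccne2 read 8.96, 9.08 and 8.68 at E15.5, 7.93, 7.74 and 8.28 at P5 and 8.28, 9.05 and 8.76 at P10 and fell by 0.92 ± 0.21 (adjusted p = 0.0094), and its P5 and P10 arrays overlapped. E2f8, a repressor of the E2F family that S phase itself induces, read 8.51, 8.51 and 8.67 at E15.5, 7.92, 8.52 and 7.95 at P5 and 9.05, 9.16 and 8.94 at P10. Its P10 arrays were the highest, 0.92 ± 0.15 above P5 (adjusted p = 0.0131) and 0.49 ± 0.15 above E15.5 (adjusted p = 0.0351, kept in 15 of 21 alternatives with a highest adjusted p of 0.111), while E2f1, an activator, did not pass in any contrast. Cdkn1b, which encodes the kinase inhibitor p27, read 10.67, 10.54 and 10.52 at E15.5, 10.87, 10.69 and 10.25 at P5 and 10.67, 10.61 and 10.58 at P10, and its stages overlapped throughout (P5 minus E15.5 0.03 ± 0.14, 95% interval -0.30 to 0.35). A second Cdkn1b probe set gave 0.28 for P5 minus E15.5 and 0.43 for P10 minus E15.5, where the chosen one gave 0.03 and 0.04, so the probe sets of this gene disagree in size.

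The recovery from P5 to P10 was then set out for replication against mitosis. Of the 20 replication members 8 rose, and of the 20 mitosis members 0 rose, beside 2.76% of all genes. The counts by limma differed far more than the sizes: the median difference was 0.47 for replication and 0.44 for mitosis, and 20 and 18 members had a positive difference. Standard errors were larger for mitosis, with a median of 0.20 against 0.14, and so was the median SD between the P5 arrays, at 0.37 against 0.23. Of the Mcm, Gins, polymerase and Rfc members alone, 6 of 13 rose, with a median of 0.53. The arrays of P10 lay wholly above those of P5 for 14 replication and 8 mitosis members, as they did for 10.6% of all genes. At an unadjusted p under 0.05, 16 replication and 8 mitosis members were higher at P10, as were 10% of all genes.

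**Figure D3:**
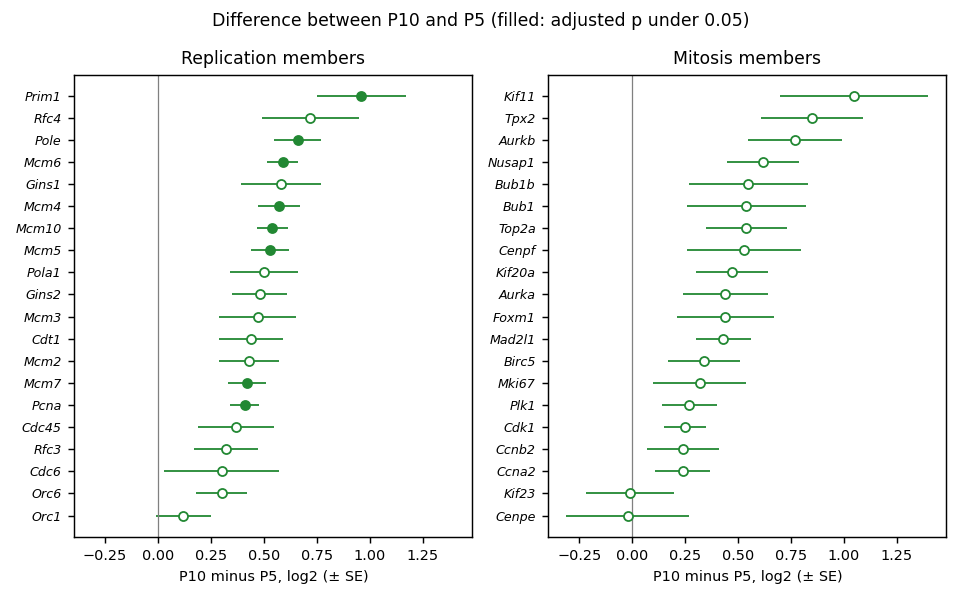
Difference between P10 and P5 (log2, point) with its standard error from the model (line) for the 20 replication members (left) and 20 mitosis members (right), 3 arrays per stage; filled points have an adjusted p under 0.05. Differences are of like size in the panels, the lines are longer on the right, and only Cenpe and Kif23 lie just below 0.

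The count of mitosis members depended on P5 array 3. It was the highest P5 array for 13 of 20 mitosis members and array 2 the lowest for 16. Kif11, the kinesin that pushes spindle poles apart, read 9.21, 9.14 and 9.22 at E15.5, 7.52, 6.99 and 8.66 at P5 and 8.76, 8.82 and 8.72 at P10, so that P5 array 3 was near the P10 arrays and arrays 1 and 2 far below. Without P5 array 3, mitosis members with a rise numbered 6 (Kif11, Tpx2, Bub1, Bub1b, Cenpf and Top2a, by 0.78 to 1.52, adjusted p from 0.00285 to 0.0275) and replication members 11, and the count over all members went from 11 to 20. Without P5 array 2 they numbered 0 and 5, and without P10 array 2 or P10 array 3 likewise 0 and 5, and without P5 array 1 only Mad2l1, a checkpoint gene, rose among the mitosis members. Without both P5 arrays 2 and 3, which leaves a single P5 array assumed to vary like the others, 4 mitosis members (Bub1, Bub1b, Kif11 and Tpx2) and 5 replication members rose. The part of the endothelial signal on P5 arrays 2 and 3 in these counts was not tested. Mcm6, Mcm10, Pcna and Pole rose, and Ccnd2 fell, in all 21 alternatives.

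As a description with no test, the mean of each group's members was taken per array as a deviation from the E15.5 means. Replication stood at -0.51, -0.56 and -0.42 on P5 arrays 1 to 3 and at -0.05 to 0.02 on the P10 arrays. Mitosis stood at -0.90, -1.17 and -0.51 at P5 and at -0.30, -0.45 and -0.49 at P10. So the P5 arrays were the lowest for replication, whereas for mitosis P5 array 3 was near the P10 level. Replication minus mitosis lay between -0.07 and 0.08 on the fetal arrays, at 0.39, 0.61 and 0.09 at P5 and at 0.25, 0.47 and 0.49 at P10. Within replication, licensing was at -0.27 to -0.12 and the fork at 0.16 to 0.18 on the P10 arrays.

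**Figure D4:**
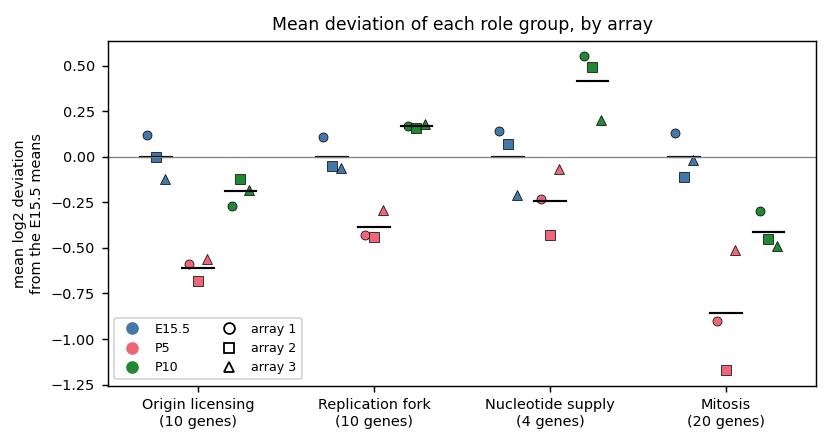
Mean over the genes of a role group of the log2 deviation from each gene's E15.5 mean, per array; colours are stages, symbols are arrays 1 to 3, and the black bar is the mean of 3 arrays. The mean at P5 is lowest in each group, fork and nucleotide genes are above 0 at P10, and mitosis genes stay below 0 with P5 array 3 level with P10.

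Against E15.5, the P10 arrays show what difference was left, in a contrast that shares its E15.5 arrays with that at P5. Lower at P10 than at E15.5 were 5 replication members (Orc1, Orc6, Mcm4, Pola1 and Pole) and 5 mitosis members (Mki67, Top2a, Bub1, Cenpe and Kif23). Another 6 replication members (Cdt1, Mcm6, Mcm7, Mcm10, Gins1 and Rfc3) and 2 mitosis members (Aurka and Aurkb) were higher at P10 than at E15.5. Over all genes 18.6% were lower and 20.1% higher in this contrast. The 5 of 20 lower in each group were thus not far above that share, and the 2 of 20 mitosis members higher were below it. The group medians were -0.02 and -0.16. Quantile normalisation of the deposited values moved the median of all genes in this contrast by 0.13 and the share of called genes that were higher from 51.8% to 69.4%, and under it 12 members were higher and 12 lower.

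Other genes of the same pathways, listed beside the members, were counted in the same way. Of 49 further replication genes 27 fell and 1 rose at P5 (median -0.43), 4 rose from P5 to P10 (median 0.30), and at P10 13 were lower and 8 higher than at E15.5. Cdc7, the kinase that fires origins (-2.16 ± 0.12), Wdhd1, which ties polymerase alpha to the helicase (-2.09 ± 0.11), Donson, a fork protein (-1.26 ± 0.11), and Dnmt1, the maintenance DNA methyltransferase (-1.41 ± 0.15), were among those with the smallest adjusted p that fell, and Pole4 rose (0.69 ± 0.17). Gmnn, which blocks Cdt1 (0.85 ± 0.10), and Wdhd1 (0.83 ± 0.11) were among those that rose to P10, with Rpa1 (0.50 ± 0.11) and Brca1 (0.38 ± 0.089). Over all genes 17.7% fell and 17.9% rose at P5, 2.76% rose from P5 to P10, and at P10 18.6% were lower and 20.1% higher than at E15.5, so that the 8 of 49 higher at P10 were a smaller share than among all genes. Of 63 further mitosis genes 37 fell and 2 rose at P5 (median -0.73), 7 rose from P5 to P10 (median 0.38), and at P10 21 were lower and 8 higher than at E15.5.

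Examples of the further mitosis genes were Kif15, a spindle kinesin (-1.71 ± 0.18 at P5), Ncapd3, a condensin subunit (-1.18 ± 0.13), and the kinetochore genes Cenpk (-0.80 ± 0.10) and Ndc80 (-0.83 ± 0.11). The 2 that rose at P5 are kinetochore genes as well, Spc25 (1.15 ± 0.13) and Cenpm (1.05 ± 0.17), and Cenpm rose on to P10 (1.02 ± 0.17), 4.19-fold above E15.5. Cenpm read 7.51, 7.71 and 7.54 at E15.5, 8.57, 8.67 and 8.67 at P5 and 10.07, 9.57 and 9.33 at P10, with no overlap between the stages. With all arrays in the fit 7 of 63 further mitosis genes rose from P5 to P10, beside 2.76% of all genes. Among these 7 were Pbk (0.77 ± 0.097), Cenpk (0.67 ± 0.10) and Kif2c (0.82 ± 0.16). Of the 20 mitosis members 0 rose, which is near the share of all genes. The median difference was of like size, at 0.38 for the further genes and 0.44 for the members.

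Among 29 further regulators of the decision to divide, 9 fell and 2 rose at P5, 2 rose from P5 to P10, and at P10 8 were lower and 6 higher than at E15.5, beside 17.7% and 17.9% of all genes at P5, 2.76% from P5 to P10 and 18.6% and 20.1% at P10. The 6 of 29 higher at P10 were thus near the share of all genes, and the 2 of 29 higher at P5 below it. Skp2, which marks p27 for destruction (-2.00 ± 0.16), its cofactor Cks1b (-1.05 ± 0.067), the imprinted kinase inhibitor gene Cdkn1c (-1.24 ± 0.13) and the repressor E2f7 (-0.76 ± 0.079) were among those that fell at P5. Cdk6, a kinase partner of D-type cyclins (0.74 ± 0.092), and E2f2 (0.37 ± 0.094) rose. Cdkn2c, which encodes an inhibitor of the cyclin D kinases, read 7.26, 6.56 and 6.92 at E15.5, 7.16, 7.17 and 7.21 at P5 and 8.70, 8.34 and 8.44 at P10. It rose from P5 to P10 (1.31 ± 0.17, adjusted p = 0.00411), as did Tfdp2, a partner of E2F factors (0.55 ± 0.081). From P5 to P10 limma called 0 genes lower in each of the further replication, mitosis and regulator lists. Over all genes 2.89% were called lower, so 0 in lists of this size is near that share. At an unadjusted p under 0.05, 0, 1 and 2 genes of these lists were lower, beside 8.11% of all genes.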

How the data were processed

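The authors deposited log2 signals per probe set of Affymetrix arrays, made with RMA in Affymetrix Expression Console, with Transcriptome Analysis Console 2.0, per the submitters' processing notes. RMA equalises probe signals between arrays, so a change shared by most genes would not show. No genome build is named for the arrays in the sources used here, and the RefSeq promoter windows are of GRCm38.p6.

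Of 35556 probe sets, 21789 carried 1 gene symbol, 1621 several, and 12146 were not listed in the annotation. Of the 21789, 21698 took the RefSeq symbol of their Entrez identifier, whether or not it differed from the annotated one. For each of 19938 genes the single-symbol probe set with the highest mean over 9 arrays was used, and 999 genes had several. Stages were compared with limma 3.58.1 (R 4.3.3) on all 9 arrays with stage as the only term, 2-sided, and Benjamini-Hochberg adjustment ran over all genes of a contrast. A gene is called higher or lower at an adjusted p under 0.05, and the fit was tested on simulated data. Fold changes are 2 to the log2 difference. With 3 arrays per stage the precision is limited by their number.

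The members, role groups and further lists were chosen with earlier results of these data known. Every array's value is given for up to 4 called members per role group and contrast with the smallest adjusted p, for members called against their group's majority and for Mki67, Mcm2, Mcm5, Cdk1, Ccnd1, Ccnd2, Ccne1, Ccne2 and Cdkn1b, with Kif11 added after its values were seen; of each further list up to 4 called genes per contrast and direction were eligible for naming. The 21 alternatives were 3 scalings, a filter, 2 other probe set rules, a replicate block, the compared stages alone, another variance model, array weights, Eif2s3y as covariate, each array left out, and P5 arrays 2 and 3 both left out, which was added after seeing the data.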

Additional observations from a re-analysis of the deposited data

How the results depend on the processing

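Of the calls among the members, 19 of 29 at P5 against E15.5, 5 of 12 at P10 against P5 and 16 of 24 at P10 against E15.5 passed in all 21 alternatives, and no call changed direction. At P5 the number of members that rose was 2 with arrays centred on ribosomal protein genes or with the probe set of highest SD, 0 without both P5 arrays 2 and 3 (chosen after seeing the data), and 1 to 2 with single arrays left out, against 1. From P5 to P10, 11 rose: the count was 6 with only the stages compared and 5 to 20 with single arrays left out (5 without P10 array 2, 7 without P5 array 2 or P10 array 3, 20 without P5 array 3). Of these the replication members numbered 8, then 5 without both P5 arrays and 5 to 11 with single arrays left out. Mitosis members numbered 0, then 1 with arrays centred on the median of all genes, 1 with the replicate block, 2 with array weights, 4 without both P5 arrays and 0 to 6 with single arrays left out. At P10 against E15.5, 13 were higher (8 to 13 with single arrays left out, the fewest without E15.5 array 2 or 3 or P10 array 2) and 11 lower, which became 17 with only the stages compared, 17 without both P5 arrays and 10 to 15 with single arrays left out. The replication median of that contrast, -0.02, turned to 0.07 with arrays centred on the median of all genes. Same-numbered arrays did not deviate together (r from -0.0795 to 0.0687, 0 of 9 pairs over 0.1). No pairing by number was thus seen, though such correlations cannot exclude that arrays were handled in numbered sets. The block gave 10 members higher and 1 lower from P5 to P10. The share of called genes that were higher went from 50.2% to 64.1% at P5 under quantile normalisation, and from 48.8% to 63.5% between P5 and P10 and from 51.8% to 65.6% at P10 against E15.5 with median centring. The causes of these changes were not tested. Of the 54 members 51 lay above the median gene at every stage, so low signal limits few of them.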

Other observations

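Genes that the p53 protein is known to activate were also listed, since p53 restrains the cell cycle through Cdkn1a, which was not analysed here. Of 13 measured genes 4 rose and 1 fell at P5, beside 17.9% and 17.7% of all genes. Gadd45a, a stress-induced gene (1.47 ± 0.23), the death receptor gene Fas (1.23 ± 0.20), Trp53inp1 (1.15 ± 0.19) and Sesn2 (0.57 ± 0.15) rose, and Phlda3, an inhibitor of Akt signalling, fell (-1.18 ± 0.18). From P5 to P10 limma called 0 of 13 in either direction, beside 2.76% of all genes higher and 2.89% lower. At an unadjusted p under 0.05 2 were higher and 1 lower, beside 10% and 8.11% of all genes. These counts were thus near the shares of all genes. At P10 the same 4 genes were higher than at E15.5, and Phlda3 and Btg2 (-0.48 ± 0.14) were lower, beside 20.1% and 18.6% of all genes. The median over the 13 was 0.04 at P5 and 0.00 at P10 against E15.5.

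Markers of further cell types were counted too. Over all genes 17.9% rose and 17.7% fell at P5, and 2.89% fell from P5 to P10. Of 5 measured megakaryocyte markers 3 fell at P5 (Pf4, Itga2b and Ppbp). Of 9 leukocyte markers Csf1r rose, Cd68 fell and 7 did not pass, a smaller share in each direction than among all genes. Of 4 cholangiocyte markers 3 rose at P5 and 2 fell from P5 to P10, and of 8 mesothelial markers 5 rose and 1 fell at P5 and 5 fell from P5 to P10. The part of these cells in the members' differences was not tested.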
